A study of Mus musculus with 4 samples.

Results

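The B cell and plasma cell genes described here are Cd79a, Cd79b, Pax5, Vpreb1, Jchain, Tnfrsf17, Sdc1, Xbp1 and Prdm1. Their probes were found by gene name in the array files, where Jchain appears under its older symbol Igj. All 9 genes were present, with 11 of the 55681 probes on the array: Cd79a and Pax5 had 2 probes each and the other genes 1. The samples were LSK cells (negative for lineage markers, positive for Sca-1 and c-Kit) of mouse bone marrow, a sorted fraction rich in blood stem cells and early progenitors, from lethally irradiated recipients of E14.5 fetal liver cells. There were 4 groups of donor cells, all on the C57B6 background: WT, TET2KD (TET2, which oxidises methylated cytosines in DNA, knocked down), JAK2V617F (a transgene for the activated kinase of myeloproliferative neoplasms) and the double mutant that carried both. Recipients of WT and of JAK2V617F cells were sampled at 16 weeks, those of TET2KD cells at 10 weeks and those of double mutant cells at 13 weeks. Each group had 5 mice and is represented by 1 array. Whether RNA of the 5 mice was pooled, how the knock-down was made, which promoter drives the transgene and which antibodies were used for sorting are not given in the sources used here.

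B cells arise from lymphoid progenitors under transcription factors such as PAX5, which commits cells to the B lineage. Their precursors test the newly made immunoglobulin heavy chain with a surrogate light chain, of which VPREB1 is a subunit, and signal from it through the CD79A and CD79B pair that later serves the B cell receptor. Plasma cells are the antibody-secreting end stage: PRDM1 (BLIMP1) shuts down the B cell programme, XBP1 expands the secretory pathway, JCHAIN joins polymeric antibodies, and TNFRSF17 (BCMA) and syndecan-1 (SDC1) stand on the cell surface. The LSK gate is meant to leave out cells that carry surface markers of mature lineages, B cells among them.

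A probe of 60 bases reads a short stretch of a transcript, and the stretch mattered for the genes with a pair of probes. The sequences below, read from the array files with mm9 coordinates, are shown because their signals set the 4 arrays apart; capitals mark an AATAAA polyadenylation signal. The pair on Cd79a and the pair on Pax5 are given first, since the members of each pair differed in pattern. For probes that may lie in an untranslated region 30 bases are shown.
Cd79a downstream probe, chr7:25686823-25686882, plus strand, last 30 bases: gtgatAATAAAtccttcccaaagcaaaaaa
Cd79a junction probe, chr7:25684357-25684614, plus strand: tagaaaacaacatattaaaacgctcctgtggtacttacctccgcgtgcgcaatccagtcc
Pax5 junction probe, chr4:44550354-44582908, minus strand: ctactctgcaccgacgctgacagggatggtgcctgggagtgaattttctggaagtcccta
Pax5 upstream probe, chr4:44658421-44658480, minus strand: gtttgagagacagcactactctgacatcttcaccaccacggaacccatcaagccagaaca
Vpreb1, chr16:16868559-16868618, minus strand, first 30 bases: aggggtagaacgtgaggttttgcagagcct
Jchain, chr5:88949919-88949978, minus strand, first 30 bases: ctgtactagtctttctcttaacctctcact
Tnfrsf17, chr16:11320045-11320104, plus strand, first 30 bases: tagataatgagcttcctaactggtgtgaag

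The Cd79a junction probe covered a span of 258 bases, so 198 bases lie between its ends that it does not itself read, and the Pax5 junction probe left out 32495 bases in the same way; both therefore cross a splice junction. The pair on Cd79a lay 2208 bases apart and the pair on Pax5 75512 bases apart. The remaining probes lay at chr11:106172780-106172839 (Cd79b, minus strand), chr12:8799383-8799442 (Sdc1, plus), chr11:5425816-5425875 (Xbp1, plus) and chr10:44157089-44157148 (Prdm1, minus). The GC content of the 11 probes ran from 35% to 55%, with a median of 43.3% over all probes. Which exon or untranslated region each probe lies in was not analysed here.

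The 75th percentile of the processed signal, to which each array was scaled, was 120 to 144. Between 49.4% and 54.7% of spots were well above background by the scanner's own test, and the number of arrays limits the precision. Probes printed in repeat spots had an SD within an array of 0.141 to 0.149 on the log2 scale, hence 0.199 to 0.207 for a difference between a pair of arrays. That error leaves out amplification, sorting and animals, and each member probe had 1 spot. A single array stood for each group, which gives no replicate check, so "higher" and "lower" describe these arrays. A difference was counted when it reached 2-fold. If a probe was well above background on only 1 of the 2 arrays compared, the dim side took the lowest well-above-background signal of its array, or its own if higher, and the fold is written "at least". Probes below background on both were not compared. The gate's own genes Kit and Ly6a (Sca-1) were well above background on all 4 arrays. Of the stem cell genes read beside them, Cd34 was so too, while Slamf1 was not on any. Tet2, the targeted gene, had 27.3% of the WT signal in TET2KD, 60.3% in the double mutant and 73.1% in JAK2V617F on 1 probe and 56.3%, 61.6% and 105% on another; the third probe ran against the label, well above background in the double mutant alone, with a signal of 42.1 beside 9.86 in WT, 18.5 in TET2KD and 8.21 in JAK2V617F. In bulk RNA, fewer cells of a type and less RNA per cell cannot be told apart.

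Of the 11 probes, 7 were well above background in WT and 9 on each mutant array, and 6 were so on all 4 arrays, against 39.7% of all probes on the array. Vpreb1, Cd79b and the Cd79a junction probe were highest in WT, Jchain and Tnfrsf17 were high on both arrays that carry the TET2 knock-down, Sdc1 was highest in TET2KD, and Xbp1 and Prdm1 varied least.

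**Figure D1:**
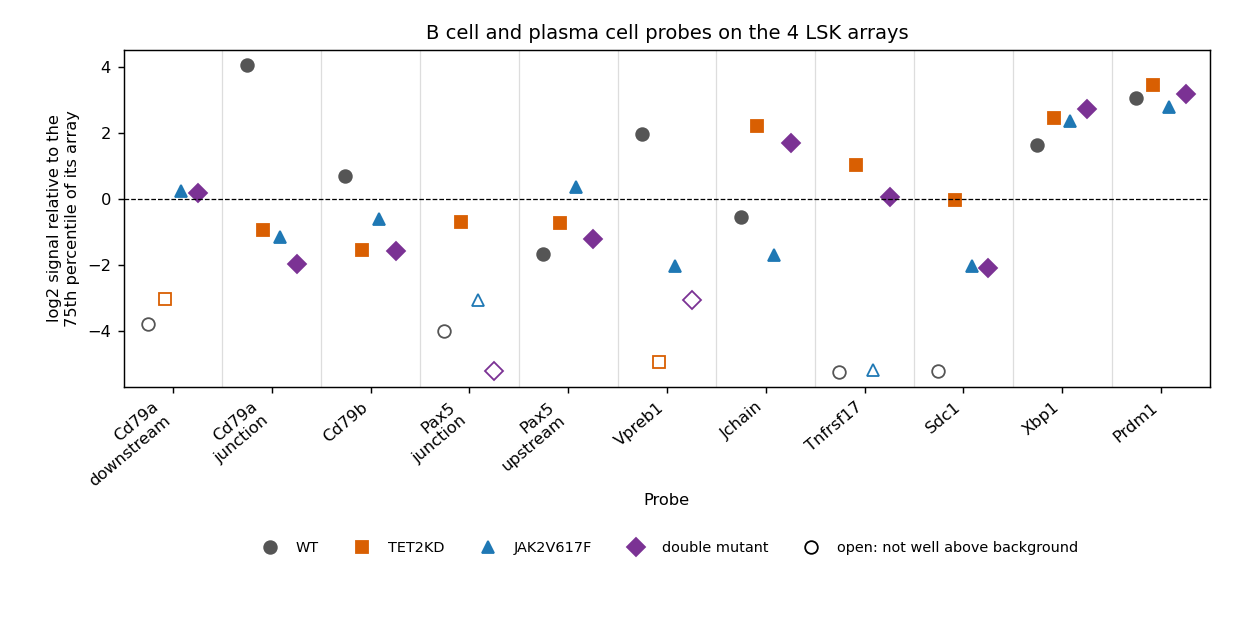
Log2 processed signal relative to the 75th percentile of its array (vertical axis) for the 11 B cell and plasma cell probes (horizontal axis), 1 symbol per array; open symbols were not well above background, and no error bar is drawn because each group has 1 array. The WT circle lies above every mutant for the Cd79a junction probe, Cd79b and Vpreb1, while the TET2KD and double mutant symbols lie above the others for Jchain and Tnfrsf17.

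Vpreb1 had a processed signal of 493 in WT against 3.88 in TET2KD, 31.9 in JAK2V617F and 17.3 in double mutant cells, the values in TET2KD and the double mutant being not well above background. WT thus stood far above the mutant arrays. After scaling, Vpreb1 was at least 26.7-fold lower than WT in TET2KD, 15.7-fold lower in JAK2V617F and at least 31.9-fold lower in the double mutant. Background correction by normexp, an alternative that shrinks differences of dim probes, gave smaller log2 differences of -2.76, -2.59 and -2.98 in place of -4.74, -3.98 and -5.00.

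Cd79a, a signalling chain of the B cell receptor, gave opposite pictures on its pair of probes. The junction probe had a signal of 2105 in WT, of 62.8 and 59.2 in TET2KD and JAK2V617F, and of 36.3 in the double mutant, all well above background. WT was again the high array: the junction probe was 31.4-fold lower in TET2KD, 36.3-fold lower in JAK2V617F and 65.2-fold lower in the double mutant. The share of all compared probes with a larger absolute difference was 0.227%, 0.0772% and 0.0149% in these 3 comparisons. With normexp the log2 differences were -4.05, -4.19 and -4.54 in place of -4.97, -5.18 and -6.03.

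The downstream probe of Cd79a, which holds the polyadenylation signal shown above, had signals of 9.33 in WT and 14.6 in TET2KD, neither well above background, and of 153 in JAK2V617F and 163 in the double mutant. Here both arrays with the JAK2V617F transgene were high and WT low. The downstream probe was at least 9.44-fold higher than WT in JAK2V617F and at least 9.14-fold higher in the double mutant, the arrays in which the junction probe was far lower. The log2 differences of 3.24 and 3.19 were 1.31 and 1.28 with normexp. No direction can therefore be given for Cd79a as a gene. Disagreement of this kind was frequent on the arrays: among pairs of probes of 1 gene that both differed at least 2-fold, the sign was opposite in 38.0% for TET2KD against WT, 37.3% for JAK2V617F against WT and 35.4% for the double mutant against WT.

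Cd79b, the partner chain, had a signal of 206 in WT, with 85.9 in JAK2V617F, 48.1 in the double mutant and 41.3 in TET2KD. It was highest in WT, and the TET2KD and double mutant arrays lay within 0.04 of each other on the log2 scale, less than the repeat-spot error. Cd79b was 4.69-fold lower than WT in TET2KD, 2.45-fold lower in JAK2V617F and 4.83-fold lower in the double mutant. With normexp the JAK2V617F difference was -0.82 on the log2 scale in place of -1.29 and no longer reached 2-fold, and those of TET2KD and the double mutant were -1.25 and -1.29 in place of -2.23 and -2.27.

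Pax5 also differed by probe. The upstream probe had a signal of 167 in JAK2V617F, 71.5 in TET2KD, 61.7 in the double mutant and 40.4 in WT, so that JAK2V617F stood above the rest. It was 4.06-fold higher than WT in JAK2V617F, with 1.89-fold in TET2KD and 1.36-fold in the double mutant, both under the threshold. The log2 difference of 2.02 in JAK2V617F was 1.21 with normexp. The junction probe had a signal of 73.9 in TET2KD and was not well above background elsewhere, with 8.05 in WT, 15.6 in JAK2V617F and 3.84 in the double mutant. It was at least 4.97-fold higher in TET2KD than in WT, a log2 difference of 2.31 that was 0.84, under the threshold, with normexp.

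Among the plasma cell genes, Jchain had a signal of 554 in TET2KD and 460 in the double mutant, beside 87.7 in WT and 40.4 in JAK2V617F. The arrays with the TET2 knock-down were high and the others low. Jchain was 6.74-fold higher than WT in TET2KD and 4.67-fold higher in the double mutant, and 2.22-fold lower in JAK2V617F. With normexp the log2 differences were 2.10 in place of 2.75 in TET2KD, 1.69 in place of 2.22 in the double mutant and -0.61, under the threshold, in place of -1.15 in JAK2V617F.

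Tnfrsf17, a receptor for the survival factors of plasma cells, had a signal of 3.41 in WT and 3.62 in JAK2V617F, neither well above background, and of 241 in TET2KD and 149 in the double mutant. It shared the split of Jchain, with no measured level on the other pair of arrays. Tnfrsf17 was at least 16.2-fold higher than WT in TET2KD and at least 8.39-fold higher in the double mutant. Normexp gave log2 differences of 2.13 and 1.41 in place of 4.02 and 3.07.

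Sdc1, the surface proteoglycan used to mark plasma cells, had a signal of 117 in TET2KD, 31.7 in JAK2V617F, 33.7 in the double mutant and 3.46, not well above background, in WT. TET2KD was the high array, and JAK2V617F and the double mutant lay together. Sdc1 was at least 7.90-fold higher than WT in TET2KD, and at least 1.96-fold and at least 1.89-fold higher in JAK2V617F and the double mutant, where the bound is under the threshold. The log2 difference of 2.98 in TET2KD was 1.34 with normexp. Sdc1 thus did not share the split of Jchain and Tnfrsf17.

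The transcription factors of the plasma cell stage were bright on every array. Xbp1 had a signal of 392 in WT, of 648 and 673 in TET2KD and JAK2V617F, and of 937 in the double mutant. Prdm1 had 1065 in WT, with 1295 and 887 in the single mutants TET2KD and JAK2V617F and 1302 in the double mutant. WT was the lowest array for Xbp1, which was 1.76-fold higher in TET2KD, 1.68-fold in JAK2V617F and 2.13-fold in the double mutant. Prdm1 lay within 1.30-fold of WT on every mutant array. Whether the Xbp1 probe tells the spliced form from the unspliced one was not analysed.

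In TET2KD against WT, 10 of the member probes were compared, 4 were higher (Jchain, Tnfrsf17, Sdc1 and the Pax5 junction probe) and 3 lower (Vpreb1, Cd79b and the Cd79a junction probe). Over all probes 17.6% were higher and 17% lower, and 34.5% differed 2-fold either way. The median log2 difference of the members was 0.87, beside -0.02 over all probes. In JAK2V617F against WT, 9 were compared, 2 were higher and 4 lower, against 16.1% and 16.4% of all probes (32.5% either way), with medians of -0.29 and -0.01. In the double mutant against WT, 10 were compared, 4 were higher and 3 lower, against 16.3% and 16.7% (33.1% either way), with medians of 0.68 and -0.00. These 3 comparisons share the WT array, so that WT being high for a probe enters each of them.

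**Figure D2:**
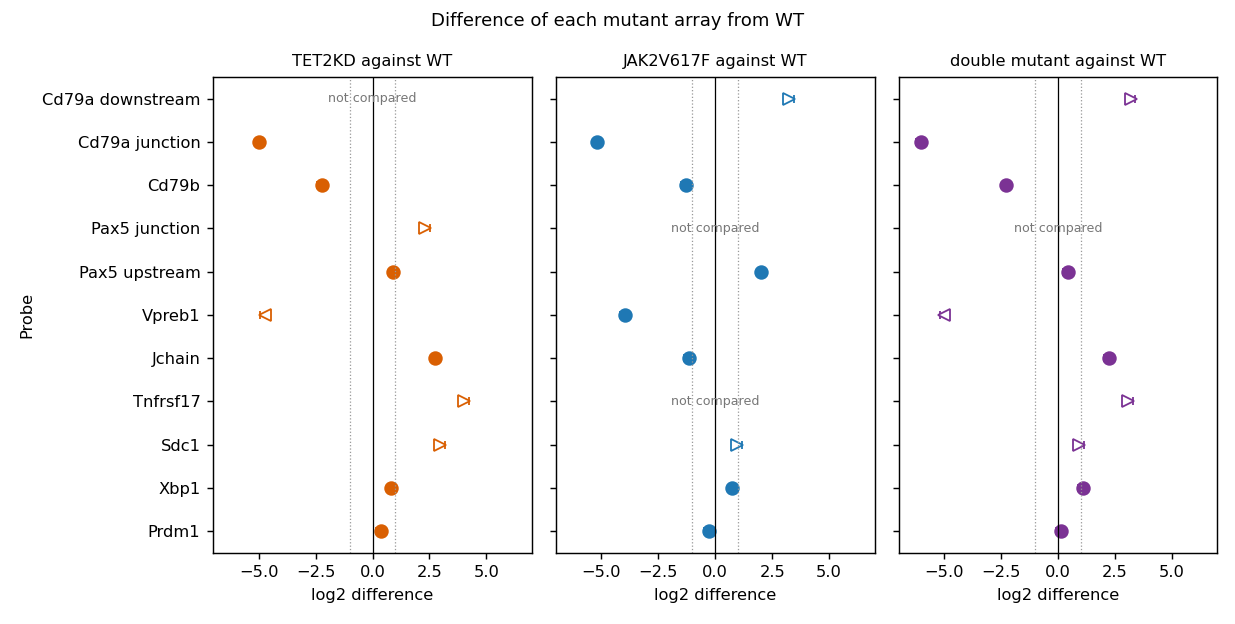
Log2 difference from WT (horizontal axis) of each B cell and plasma cell probe (vertical axis) in TET2KD, JAK2V617F and the double mutant; filled points were well above background on both arrays, open arrowheads are lower bounds that point away from 0, dotted lines mark 2-fold, and bars, mostly hidden by the points, are the repeat-spot SD of a difference. Vpreb1 and the Cd79a junction probe lie farthest to the left in all 3 panels, and Tnfrsf17 lies farthest to the right in TET2KD, at 4.02.

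The double mutant was set against each single mutant to describe adding 1 lesion to the other. Against JAK2V617F, 10 member probes were compared, 2 were higher and 2 lower, against 13.4% and 13.7% of all probes (27.1% either way), with a median of -0.05 for the members and -0.02 for all probes. The higher ones were Jchain (10.3-fold) and Tnfrsf17 (at least 9.67-fold), at log2 differences of 2.30 and 1.51 with normexp. The lower ones were the Pax5 upstream probe (2.99-fold, a log2 difference of -1.58 that was -1.02 with normexp) and Vpreb1 (at least 2.03-fold, a log2 difference of -1.02 that was -0.38 with normexp). Cd79b and the Cd79a junction probe were also lower, by log2 differences of -0.98 and -0.84, under the threshold.

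Against TET2KD, 10 were compared, 1 was higher and 3 lower, against 15.6% and 16.8% of all probes (32.4% either way), with medians of -0.50 and 0.00. The higher one was the Cd79a downstream probe, at least 7.84-fold. The lower ones were Sdc1 (4.17-fold), the Pax5 junction probe (at least 5.64-fold) and the Cd79a junction probe (2.08-fold). With normexp the Pax5 and Cd79a junction probes were at -0.99 and -0.49 on the log2 scale, under the threshold, Sdc1 was at -1.09 in place of -2.06, and the Cd79a downstream probe at 1.19 in place of 2.97. Jchain and Tnfrsf17 were lower by log2 differences of -0.53 and -0.95 in the double mutant than in TET2KD, and Vpreb1 was below background on both arrays.

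The effect of the TET2 knock-down can be read on 2 backgrounds that share no array, TET2KD against WT and the double mutant against JAK2V617F. For Jchain the log2 differences were 2.75 and 3.37, and for Tnfrsf17 4.02 and 3.27, both bounds. Sdc1 was at 2.98 on the first background and at -0.05 on the second. Of the 3 member probes that were higher in TET2KD than in WT and compared on both backgrounds, 2 were higher on the JAK2V617F background too. Over all probes, 4796 were higher in TET2KD than in WT, and of these 20% were at least 2-fold higher and 18.7% at least 2-fold lower on the other background. Of the 3 that were lower, Vpreb1 was also at least 2-fold lower on the other background, beside 19.1% of 4728 over all probes.

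For the JAK2V617F transgene, read as JAK2V617F against WT and the double mutant against TET2KD, the Cd79a downstream probe had log2 differences of 3.24 and 2.97, both bounds, and the Cd79a junction probe of -5.18 and -1.05. Pax5 upstream was at 2.02 and -0.47 and Sdc1 at 0.97 and -2.06. Of 2 member probes that were higher against WT, 1 was higher on both backgrounds, beside 26.2% over all probes. Of 3 that were lower, 1 was lower on both, beside 27.2%. Recipients of TET2KD and double mutant cells were also those sampled earliest, at 10 and 13 weeks, so the knock-down and the weeks after transplantation cannot be told apart.

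**Figure D3:**
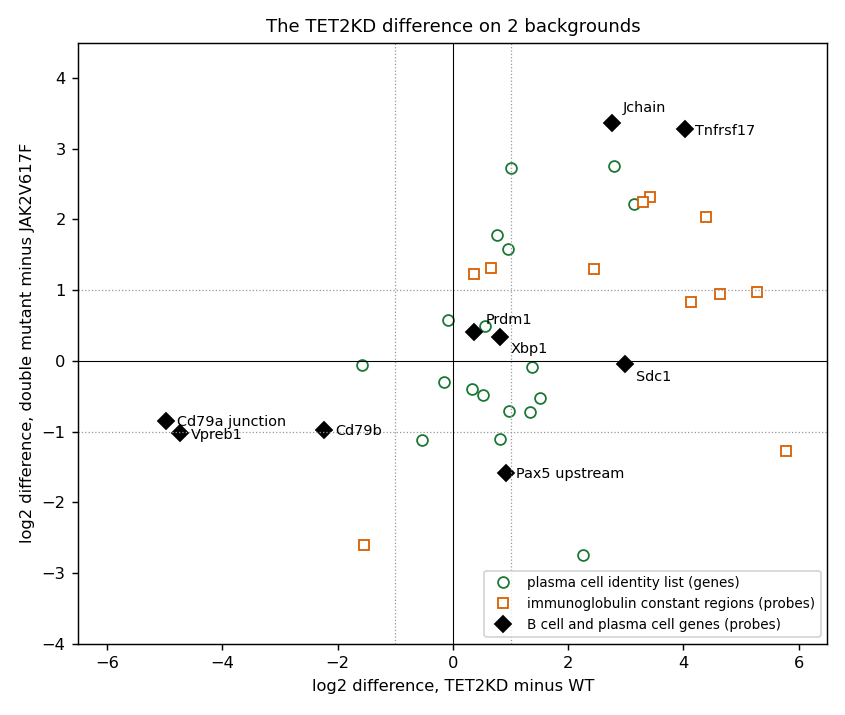
Log2 difference of TET2KD from WT (horizontal axis) against that of the double mutant from JAK2V617F (vertical axis) for B cell and plasma cell probes (diamonds), genes of a plasma cell identity list (circles) and immunoglobulin constant region probes (squares); dotted lines mark 2-fold, and each point rests on 4 arrays of which the axes share none. Jchain and Tnfrsf17 lie in the upper right, past 2-fold on both axes, and Sdc1 lies at 2.98 and -0.05.

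Patterns over the 4 arrays were counted over the 37231 probes well above background on at least 1 array. Jchain and Tnfrsf17 had both TET2 knock-down arrays above both other arrays by at least 2-fold, with gaps of 4.67-fold and at least 8.39-fold, as did 1.71% of probes. The Cd79a downstream probe had both JAK2V617F arrays above the others by a gap of at least 7.84-fold, a pattern held by 2.13% of probes, and no member was counted with the reverse of it, held by 2.23%. The Cd79a junction probe, Vpreb1 and Cd79b had WT above all 3 mutant arrays, with gaps of 31.4-fold, 15.7-fold and 2.45-fold, as did 6.09% of probes. Both knock-down arrays lay under both others by at least 2-fold for 1.44% of probes and WT under all 3 mutants for 3.49%. Neither was counted for a member, but the gaps of Vpreb1 (at least 1.69-fold) and Sdc1 (at least 1.89-fold) are bounds that do not settle it.

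A model with additive TET2KD and JAK2V617F effects, fitted with limma over the 4 arrays, left 1 residual degree of freedom, pooled over 30653 probes. That residual is the departure of the double mutant from the sum of the single differences. The SE and p-values of this fit therefore do not measure spread between arrays or animals of a group. At an adjusted p under 0.05 it called 0 probes for either effect, members included; at an unadjusted p under 0.05 it called 5.71% of probes for TET2KD and 7.5% for JAK2V617F. For TET2KD, Tnfrsf17 had an effect of 3.65 ± 0.439 (SE, log2, limma adjusted p = 0.862) and Jchain of 3.06 ± 0.423 (limma adjusted p = 0.862), higher on both knock-down arrays. For JAK2V617F, the Cd79a downstream probe had an effect of 3.11 ± 0.394 (SE, log2, limma adjusted p = 0.659). In these fits the arrays on which Tnfrsf17 and the Cd79a downstream probe were not well above background entered at their floor. The 3 probes had unadjusted limma p-values of 0.00268, 0.00412 and 0.00316. Cd79b had a TET2KD effect of -1.60 ± 0.520 (SE, log2) with an unadjusted limma p of 0.0485 (adjusted 0.865), and every other member effect had an unadjusted p above 0.05. An exact permutation test of 2 arrays against 2 cannot go below 0.333.

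The double mutant departed from the sum of the single differences for some members and not for others. The departure, double mutant minus both single mutants plus WT, with dim arrays at their floor, was 3.72 for Vpreb1 and 4.13 for the Cd79a junction probe on the log2 scale, each single mutant being far under WT. For these probes the sums of the single differences were -8.71 and -10.2, from scaled log2 WT values of 1.95 and 4.04. Such sums would put the double mutant far under its floor of -3.19. A positive departure was therefore fixed by the floor and does not tell whether the differences add up. The departure was -3.03 for Sdc1, -2.50 for the Pax5 upstream probe and -2.44 for the Pax5 junction probe. The high single mutant values of Sdc1 and Pax5 were not seen in the double mutant. For Jchain the departure was 0.62, with -0.75 for Tnfrsf17, 1.25 for Cd79b, -0.48 for Xbp1, 0.04 for Prdm1 and -0.27 for Cd79a downstream. This departure could not be tested, as each term rests on 1 array, and it is the only residual of the additive fit above.

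Other genes of the plasma cell stage were read from a list of 18. In TET2KD against WT all 18 were compared, 7 were higher and 1 lower, against 15.9% and 17.5% of all genes, with a median of 0.89 beside -0.05 over all genes. Mzb1, a chaperone of antibody assembly, had signals of 11.2, 131, 13.0 and 71.7 in WT, TET2KD, JAK2V617F and the double mutant, the WT and JAK2V617F values not well above background. Mzb1 and Cd38, an ectoenzyme of plasma cells, thus had the split of Jchain, with gaps of at least 4.03-fold and 4.21-fold between the arrays with and without the knock-down. Irf4, a transcription factor needed for plasma cells, was well above background in TET2KD (25.1) and the double mutant (53.0) and not in WT or JAK2V617F. Its TET2KD signal lay near the floor of 17.3, and Irf4 was not counted with the split, its bound being under the threshold. Derl3, a factor of protein disposal in the endoplasmic reticulum, was 2.86-fold higher in TET2KD and at least 1.91-fold lower, a bound under the threshold, in the double mutant, so it did not have that split. Ssr4 was the lower one, by 2.99-fold.

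In JAK2V617F against WT 2 of 15 compared plasma cell genes were higher and 2 lower, against 15.5% and 15.7% of all genes (median 0.34 beside -0.01), with Pou2af1, a coactivator of immunoglobulin genes, 3.92-fold lower. In the double mutant against WT 5 of 17 were higher and 2 lower, against 15.3% and 16.6% (median 0.29 beside -0.01), and Txndc5 was 3.90-fold higher and Zbtb20 6.80-fold lower. Against JAK2V617F the double mutant had 5 of 18 higher and 3 lower, against 12.3% and 12.7% of all genes (median -0.19 beside -0.02), with Cd38 6.75-fold and Pou2af1 6.64-fold higher. Against TET2KD it had 2 of 18 higher and 7 lower, against 15.8% and 15.5% (median -0.43 beside 0.02), with Cd28 7.23-fold lower. The list as a whole therefore did not keep on the JAK2V617F background the median it had in TET2KD.

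Probes for immunoglobulin constant regions, the product of B and plasma cells, were found in the array's descriptions after the values had been seen, because none carried a gene symbol of the list. Of 13 such probes 12 were well above background on at least 1 array. In TET2KD 8 of 12 were higher than WT and 1 lower, against 17.6% and 17% of all probes. In JAK2V617F 5 of 12 were higher and 3 lower, against 16.1% and 16.4%, and in the double mutant 8 of 12 higher and 1 lower, against 16.3% and 16.7%. The heavy chain mu probe had signals of 3957 in TET2KD and 1492 in the double mutant, beside 394 in WT and 272 in JAK2V617F, and the kappa probe 69014 and 31709 beside 13457 and 11740. Both had the split of Jchain, with gaps of 3.37-fold and 2.10-fold, as had the gamma 3 probe and a kappa cDNA probe (4.09-fold and 4.74-fold). Gamma 2b differed, with 51.6 in WT and 1876, 1220 and 2628 in TET2KD, JAK2V617F and the double mutant: WT alone was low. Both lambda 2 probes and 1 gamma 1 probe were also lowest in WT by at least 2-fold. The pair of gamma 1 probes disagreed in TET2KD (147 and 1274, with 456 and 24.6 in WT). Constant regions have near-identical copies, so these probes are uncertain as to the gene.

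**Figure D4:**
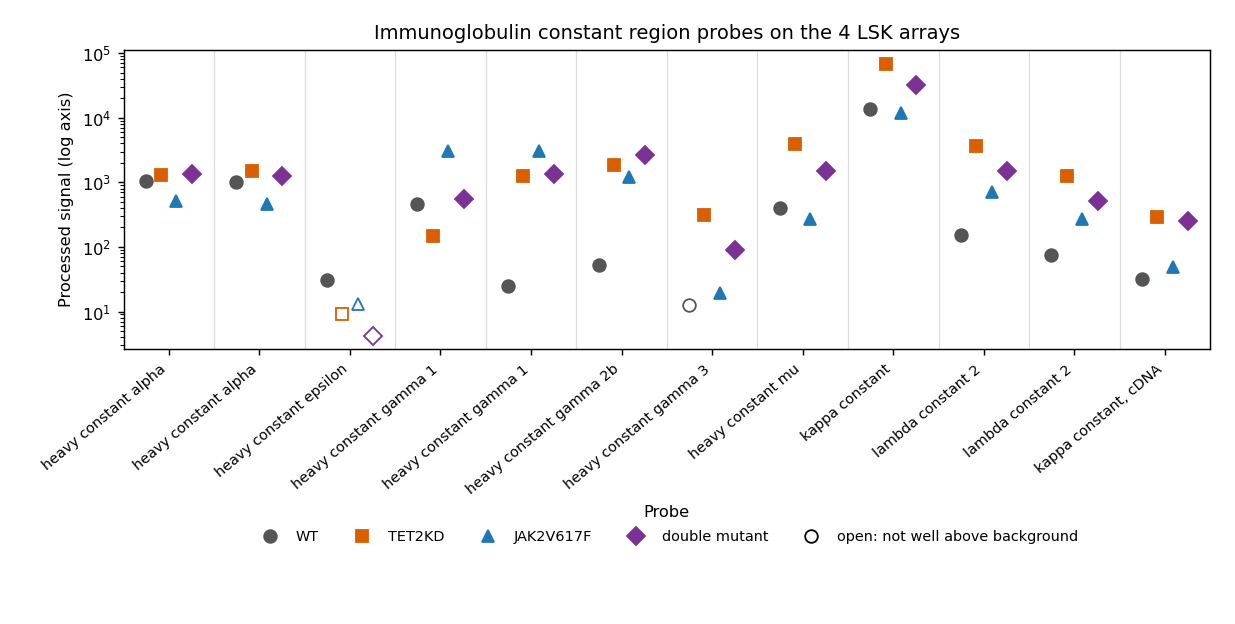
Processed signal on a log axis (vertical) of the 12 immunoglobulin constant region probes well above background on at least 1 array (horizontal axis), 1 symbol per array; open symbols were not well above background, and no error bar is drawn because each group has 1 array. For heavy chain mu and kappa the TET2KD and double mutant symbols lie above WT and JAK2V617F, and for gamma 2b the WT circle alone lies low, at 51.6.

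The 20 genes of B lineage commitment and the pre-B cell receptor had no direction in common. In TET2KD against WT 5 of 15 were higher and 4 lower (median 0.01), against the 15.9% and 17.5% of all genes given above. In JAK2V617F 0 of 13 were higher and 5 lower (-0.58), against 15.5% and 15.7%, and in the double mutant 2 of 13 higher and 4 lower (-0.42), against 15.3% and 16.6%. Against JAK2V617F the double mutant had 4 of 14 higher and 1 lower (0.18), against 12.3% and 12.7%. Against TET2KD it had 1 of 15 higher and 6 lower (-0.24), against 15.8% and 15.5%. Vpreb2, the second VpreB gene, resembled Vpreb1, with WT (56.9) 3.06-fold above the highest mutant array. Igll1, the other part of the surrogate light chain, was instead well above background in TET2KD alone (140). Bcl11a, a factor of early lymphoid cells, was 2.68-fold lower in TET2KD and 3.39-fold lower in JAK2V617F. Ebf1 and Vpreb3, genes of committed B cell precursors, were not well above background on any array.

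Of 22 genes of the B cell surface and of receptor signalling, 3 of 16 compared were higher and 0 lower in TET2KD (median 0.16), 4 of 15 higher and 2 lower in JAK2V617F (0.39), and 4 of 17 higher and 0 lower in the double mutant (0.72). Over all genes 15.9%, 15.5% and 15.3% were higher and 17.5%, 15.7% and 16.6% lower in these comparisons, with medians of -0.05, -0.01 and -0.01. Against JAK2V617F the double mutant had 3 of 16 higher and 0 lower (0.15), against 12.3% and 12.7%, and against TET2KD 3 of 17 higher and 1 lower (0.33), against 15.8% and 15.5%. Tnfrsf13c, the BAFF receptor, was 3.27-fold, 2.88-fold and 2.55-fold higher than WT in TET2KD, JAK2V617F and the double mutant as a mean of 2 probes, a value that rests in part on the floor; its probes had opposite signs in the double mutant. Cd22 and Cd37 were near WT throughout, with log2 differences from WT within 0.18. Ms4a1 (CD20), the marker of mature B cells, was not well above background on any array.

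Genes of the unfolded protein response, in which XBP1 acts, had medians above 0 against WT on each mutant array. Of 25 listed, 6 of 24 were higher and 1 lower in TET2KD (median 0.30), 8 of 25 higher and 2 lower in JAK2V617F (0.63) and 6 of 25 higher and 2 lower in the double mutant (0.68). The same shares of all genes apply, with 8 of 25 in JAK2V617F beside 15.5%. Hyou1, a chaperone of the endoplasmic reticulum, was 13.0-fold, 12.0-fold and 9.46-fold higher on its 1 probe, and Dnajc3 3.74-fold, 9.01-fold and 7.55-fold. Sec24d, a coat protein of secretory vesicles, was 11.8-fold, 5.07-fold and 4.64-fold lower. Dnajb9 was lower on both arrays with the transgene. In WT, TET2KD, JAK2V617F and the double mutant its signals were 433, 409, 83.6 and 121 on 1 probe. They were 516, 423, 175 and 285 on the other. Hspa5 was not raised, with 4683, 4661, 3630 and 3689 in the same order. Against JAK2V617F the double mutant had 1 of 25 higher and 0 lower (-0.12), against 12.3% and 12.7% of all genes, and against TET2KD 4 of 25 higher and 2 lower (0.24), against 15.8% and 15.5%.

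Markers of other cell types were higher on some of the same arrays, and their part in the results was not tested. The counts below are against WT unless said otherwise, where 15.9%, 15.5% and 15.3% of all genes were higher and 17.5%, 15.7% and 16.6% lower in TET2KD, JAK2V617F and the double mutant. Neutrophil genes were higher in 6 of 12 and lower in 1 in TET2KD (median 1.02), higher in 1 of 12 and lower in 6 in JAK2V617F (-1.21), and higher in 4 of 12 and lower in 1 in the double mutant (0.50). In the double mutant against JAK2V617F they were higher in 9 of 11 and lower in 0 (1.96), beside 12.3% and 12.7% of all genes. Of this list, Ltf, Camp, Ngp and Chil3 had the split of Jchain, with gaps of 4.18-fold, 2.90-fold, 2.44-fold and 4.07-fold. The summed level of that list was 459 in TET2KD, 380 in WT, 352 in the double mutant and 317 in JAK2V617F, in units of the array's 75th percentile. Most of each sum came from 1 probe of Csf3r, with signals of 42839, 39910, 40392 and 38288 in the same order. In the erythroid, plasmacytoid dendritic cell and macrophage lists below, 1 bright probe each of Ermap, Siglech and Csf1r likewise made up much of the sum. Erythroid genes were higher in 7 of 9 and lower in 1 in TET2KD (2.20). They were higher in 3 of 9 and lower in 2 in JAK2V617F (0.32). In the double mutant 6 of 10 were higher and 1 lower (1.20). Slc4a1, the band 3 anion exchanger, had the split of Jchain at a gap of 20.1-fold. Gata1 was instead highest in WT, with signals of 580, 21.1, 252 and 243 in WT, TET2KD, JAK2V617F and the double mutant. Summed levels of the list were 26.1, 61.7, 28.4 and 43.5 in the same order. B cells resemble plasmacytoid dendritic cells in using Irf8 and Spib, and Spib stands in the list of B lineage commitment too. Genes of plasmacytoid dendritic cells were higher in 4 of 12 and lower in 0 in TET2KD (0.77). In JAK2V617F 2 of 12 were higher and 1 lower (-0.35). In the double mutant 5 of 12 were higher and 1 lower (0.04). Of this list, Ccr9 had the split of Jchain on 1 probe, with a gap of at least 2.75-fold. Summed levels of this list ran from 52.1 to 70.8. T and NK cell genes were higher in 0 of 9 and lower in 2 in TET2KD (-0.64). In the double mutant they were higher in 0 of 11 and lower in 2 (0.01). Their summed level was highest in WT, at 50.9, beside 32.8 to 49.1. Macrophage genes had summed levels of 38.0 to 45.7. In TET2KD 1 of 8 was higher and 0 lower, and in JAK2V617F 1 of 9 was higher and 0 lower. In the double mutant 3 of 7 were higher and 1 lower. Megakaryocyte genes had 27.5 in TET2KD and 5.73 in the double mutant. Genes of the gate and of stem cells were read together. In TET2KD, JAK2V617F and the double mutant 1, 7 and 6 of 11 were lower and 1, 1 and 0 higher (-0.42, -1.03 and -1.14).

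The genes closest in profile to the members were searched among 7166 probes of named genes that were above background on all 4 arrays and varied, by the Euclidean distance of centred log2 values. Over only 4 arrays, many probes come close. Jchain was nearest to Pfkfb3 (distance 0.553), a regulator of glycolysis, and to the neutrophil gene Chil3 (0.593). Cd79b was nearest to Slc25a24 (0.124) and Tprgl (0.149), and the Pax5 upstream probe to Upf3a (0.0554) and Psmd11 (0.0592). Xbp1 was nearest to Fam216a (0.115) and Psmd7 (0.131). The Cd79a junction probe had no near neighbour: the closest, Mapk1ip1, lay at 1.29.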

How the data were processed

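Total RNA of sorted LSK cells was amplified with the NuGEN Ovation Pico WTA kit, labelled with Cy3 and hybridised to 1-colour Agilent mouse arrays, per the labels' protocols. Each deposited intensity is a processed signal written by Agilent Feature Extraction 10.7.3.1, which subtracted and detrended background array by array and set surrogates for low signals, and the probe coordinates are mm9, per the file headers. The deposited series matrix holds log2 values, which equalled log2 of the processed signal minus 1 constant per array (medians -2.64, -2.63, -2.60 and -2.60), so scale and direction are known and genes were not centred. Slide (1) and scan session (1) were the same for the 4 arrays.

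Signals were taken to log2 and scaled to the 75th percentile of each array, controls left out. Outlier spots (162 to 199 per array) were dropped and repeat spots averaged; no spot was saturated. Of 55681 probes, 28026 took their gene name from an accession, 3418 from a symbol and 295 from a synonym through a RefSeq gene table, used for names only. A gene's value in a list was the mean over its compared probes. Python 3.11.15, R 4.3.3 and limma 3.58.1 were used, with the Benjamini-Hochberg adjustment. The fit was also run on simulated arrays with planted effects. That run checks the code and does not show what the fit can find in these data.

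Members and lists were chosen with earlier results of these data known. Every member is named on every probe; from each list, genes were taken from those with the largest differences of at least 2-fold per comparison, and others named (gate and defining markers, genes near WT, Igll1, Tnfrsf13c) were chosen after their values were seen. Tried in turn were normexp with an offset of 50, quantile scaling, the median of detected probes, cyclic loess, the series matrix values, a filter for probes above background on both arrays, the absence of any filter, and the brightest probe per gene for lists.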

Additional observations from a re-analysis of the deposited data

How the results depend on the processing

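With 1 array per group on 1 slide, no array could be left out and no slide block was possible. No paired analysis was possible because each group has 1 array and the labels give no replicate numbers. Requiring both arrays to be well above background left 3 of 7 counted member probes in TET2KD against WT, 4 of 7 in the double mutant against WT, 2 of 4 in the double mutant against JAK2V617F and 2 of 4 against TET2KD, since bounds then drop out. Normexp also left 2 of 4 in the double mutant against TET2KD. It moved 34 of 49 member values and reversed none. Some list medians against WT also moved with normexp. That of the plasma cell list was 0.37 in place of 0.89 in TET2KD and 0.10 in place of 0.34 in JAK2V617F. That of the B cell surface list in the double mutant was 0.37 in place of 0.72. Over all probes the 9205 to 11120 counted per comparison became 3016 to 4738 with normexp, 5502 to 6610 with both arrays above background and 16499 to 18471 without a filter. Quantile scaling, the median of detected probes and the series matrix values moved none of 49. Cyclic loess moved 2 and no filter 12. Without a filter the median of all probes shifted by 0.19 for TET2KD against WT, by -0.20 for JAK2V617F against WT, by -0.19 for the double mutant against WT and by -0.23 for it against TET2KD. The additive fit with limma called 0 probes under each alternative run. Signal over background limits Sdc1, Tnfrsf17 and the Cd79a downstream probe, which give only bounds against WT. The Pax5 junction probe likewise gives only a bound in TET2KD against WT, and Vpreb1 gives bounds in TET2KD and the double mutant.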
